A study of Mus musculus with 8 samples.

Results

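The tubulin isotypes described here are 9 genes of the α- and β-tubulin families, taken by symbol from the 31058 genes and reporter elements of the count matrix: the α isotypes Tuba1a, Tuba1b and Tuba1c, and the β isotypes Tubb2a, Tubb2b, Tubb3, Tubb4a, Tubb4b and Tubb5. All 9 were present, each as 1 gene. Their unique molecular identifiers (UMIs, 1 per captured mRNA molecule) were summed by cell type and cycling state in each experiment, and each isotype was given as a share of the 9 summed and as UMIs per 1000000 UMIs of the group (CPM). Single cells came from the dentate gyrus of Ki67TD-NES mice on a mixed C57BL/6J and CD1 background, which are heterozygous for Ki67-creERT2 and carry Nestin-GFP and a tdTomato reporter; the recombinase is made from the Ki67 gene, so tdTomato marks cells that divided under tamoxifen, and GFP is driven by the Nestin promoter. Every mouse, at every age, had been given tamoxifen by gavage on 6 days and was culled on the 8th. There were 7 experiments in 8 libraries, each pooling several male and female mice: 1 experiment at 1 month, 3 at 2 months (the first of them split into 2 libraries) and 3 at 6–8 months, where the labels give 6 months. Cells carrying GFP were sorted with and without tdTomato, and in the first experiment, where the sorted populations were separate libraries, the label of the GFP+tdTomato+ library also names GFP–tdTomato– cells. All 2-month libraries were made with chemistry Version 2 and all others with Version 3, so that age of 2 months and chemistry cannot be told apart.

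Microtubules are polymers of α/β-tubulin dimers. The isotypes are nearly alike over the body of the protein and differ mostly in the acidic C-terminal tail, which lies on the outside of the microtubule, binds motors and microtubule-associated proteins and carries polyglutamylation and other modifications. Tubb3 is the classical neuronal isotype, Tuba1a and Tubb2b are the main isotypes of developing neurons and are mutated in cortical malformations, Tubb4a is abundant in myelinating oligodendrocytes and is mutated in a hypomyelinating leukodystrophy, and Tuba1b, Tubb4b and Tubb5 are expressed widely, with dividing cells needing tubulin for the spindle. Tubulin mRNAs are also autoregulated: free dimers lead to the decay of tubulin mRNAs on the ribosome, through Ttc5, which binds the first residues of the nascent chain.

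The ends of the β coding sequences are shown because they encode the tails in which the isotypes differ. Their distance from the 3′ end of the transcript, where the method reads, differed between genes. It was 148 bases in Tubb4b, 194 in Tubb2a and 333 in Tubb3, but 624 in Tubb4a, 723 in Tubb2b and 1061 in Tubb5. The sequences come from the GENCODE M21 transcripts of GRCm38. Lower case marks a stretch that all 6 β genes share letter for letter, and capitals mark the variable tail with the stop codon.
Tubb2a: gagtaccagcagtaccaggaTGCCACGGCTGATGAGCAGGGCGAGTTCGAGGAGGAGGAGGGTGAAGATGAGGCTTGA
Tubb2b: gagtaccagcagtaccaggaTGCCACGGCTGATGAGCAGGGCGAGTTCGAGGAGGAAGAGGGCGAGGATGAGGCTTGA
Tubb3: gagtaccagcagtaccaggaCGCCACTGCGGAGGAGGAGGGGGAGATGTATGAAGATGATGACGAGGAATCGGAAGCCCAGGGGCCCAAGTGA
Tubb4a: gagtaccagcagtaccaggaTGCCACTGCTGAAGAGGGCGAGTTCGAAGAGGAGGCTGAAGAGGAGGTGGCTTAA
Tubb4b: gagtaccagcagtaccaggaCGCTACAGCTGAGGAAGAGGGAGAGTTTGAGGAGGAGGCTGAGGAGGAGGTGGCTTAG
Tubb5: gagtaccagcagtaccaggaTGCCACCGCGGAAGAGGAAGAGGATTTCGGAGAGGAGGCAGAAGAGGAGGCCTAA
After the shared stretch, Tubb3 has the longest tail, with 73 bases against 55 to 58 in the other β isotypes.

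On GRCm38 the α genes form a cluster on chromosome 15, with Tuba1a at chr15:98949837-98953703 and Tuba1b at chr15:98931425-98934565 on the minus strand and Tuba1c at chr15:99029891-99038110 on the plus strand. Tubb2a (chr13:34074274-34078007) and Tubb2b (chr13:34126748-34130466) are neighbours on the minus strand, 48740 bases apart. Tubb3 lies at chr8:123411424-123422015 (plus strand), Tubb4b at chr2:25222160-25224702, Tubb4a at chr17:57080066-57087782 and Tubb5 at chr17:35833921-35838306 (minus strand). Over the whole coding sequence the 3 α genes were 97.2% to 98.3% identical and Tubb2a and Tubb2b 96.5%, while every other pair of β genes was between 81.8% and 84.6%. Reads that fit more than 1 gene are not counted by the authors' pipeline: of all 90-base windows in the last 400 bases of the transcript, 36.7% in Tuba1a, 47.3% in Tuba1b, 53.7% in Tuba1c, 21.5% in Tubb2a and 11.6% in Tubb4b also occurred in another gene or pseudogene, against 0 in Tubb2b, Tubb3, Tubb4a and Tubb5. Levels of the α isotypes relative to the β isotypes are therefore uncertain, as are those of Tubb2a relative to Tubb2b; the same gene compared between groups is read through the same windows. UMIs of a 3′ method count molecules and need no division by length.

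Cell types were gated by marker genes, and tubulin genes were in no marker list and no cycle list. Of 26036 barcodes, 24376 passed the filters and 20322 fell in 1 gate; 4054 cells met no gate or more than 1 and were left out, which was the only removal of doublets. Neural stem cell (NSC)-like, intermediate progenitor cell (IPC)-like and oligodendrocyte progenitor cell (OPC)-like cells were split by cell cycle genes into 1372 NSC-like cells outside the cycle and 218 cycling ones, 334 and 815 IPC-like cells, and 4939 and 723 OPC-like cells; the second of these figures for OPC-like cells leaves out 1 experiment at 6–8 months with under 5 cycling cells. The other groups were 648 neuroblast-like, 601 immature-neuron-like, 1456 astrocyte-like, 237 committed-precursor-like (between OPC and oligodendrocyte) and 6504 oligodendrocyte-like cells, with 406 endothelial-like, 871 mural-like and 642 microglia-like cells, all outside the cycle. Of the 642 microglia-like cells, 609 came from 2-month experiment 1. Another 28 came from experiment 4 and 5 from experiment 6, both at 6–8 months. Libraries held 4861883 to 43826338 UMIs. Between libraries, 59 of 25976 barcode sequences (0.227%) were shared. Oligodendrocyte markers were also found in cells of other classes. Their summed level was highest in 2-month experiments 2 and 3 in NSC-like, astrocyte-like, mural-like, cycling IPC-like and neuroblast-like cells, but not in endothelial-like cells. Oligodendrocyte marker levels are given beside the results on Tubb4a that they touch. Cells of an experiment come from the same mice and day, so the experiment (n = 7) was the replicate and not the cell. The edgeR p-values use an estimate of spread that is shared between genes, and do not measure the spread of 1 gene between pools of mice.

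The summed level of the 9 isotypes differed widely between cell types (described here without a test). It was 4004 ± 807 CPM (SD, n = 7) in NSC-like cells outside the cycle, 7447 ± 1022 CPM in cycling NSC-like cells, 12625 ± 851 CPM in cycling IPC-like cells, 20064 ± 2494 CPM in IPC-like cells outside the cycle, 19530.0 ± 2025 CPM in neuroblast-like cells and 19328 ± 1672 CPM in immature-neuron-like cells. In the oligodendrocyte lineage it was 3884 ± 1092 CPM in OPC-like cells, 12477 ± 3326 CPM in committed-precursor-like cells (n = 5) and 4692 ± 705 CPM in oligodendrocyte-like cells. Astrocyte-like cells (2996 ± 743 CPM), endothelial-like cells (2868 ± 745 CPM), mural-like cells (2272 ± 291 CPM) and microglia-like cells (1244 ± 199 CPM, n = 3) had the least. The ranges of IPC-like cells outside the cycle, neuroblast-like cells and immature-neuron-like cells overlapped, and all 3 lay above those of every other group named here.

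**Figure D1:**
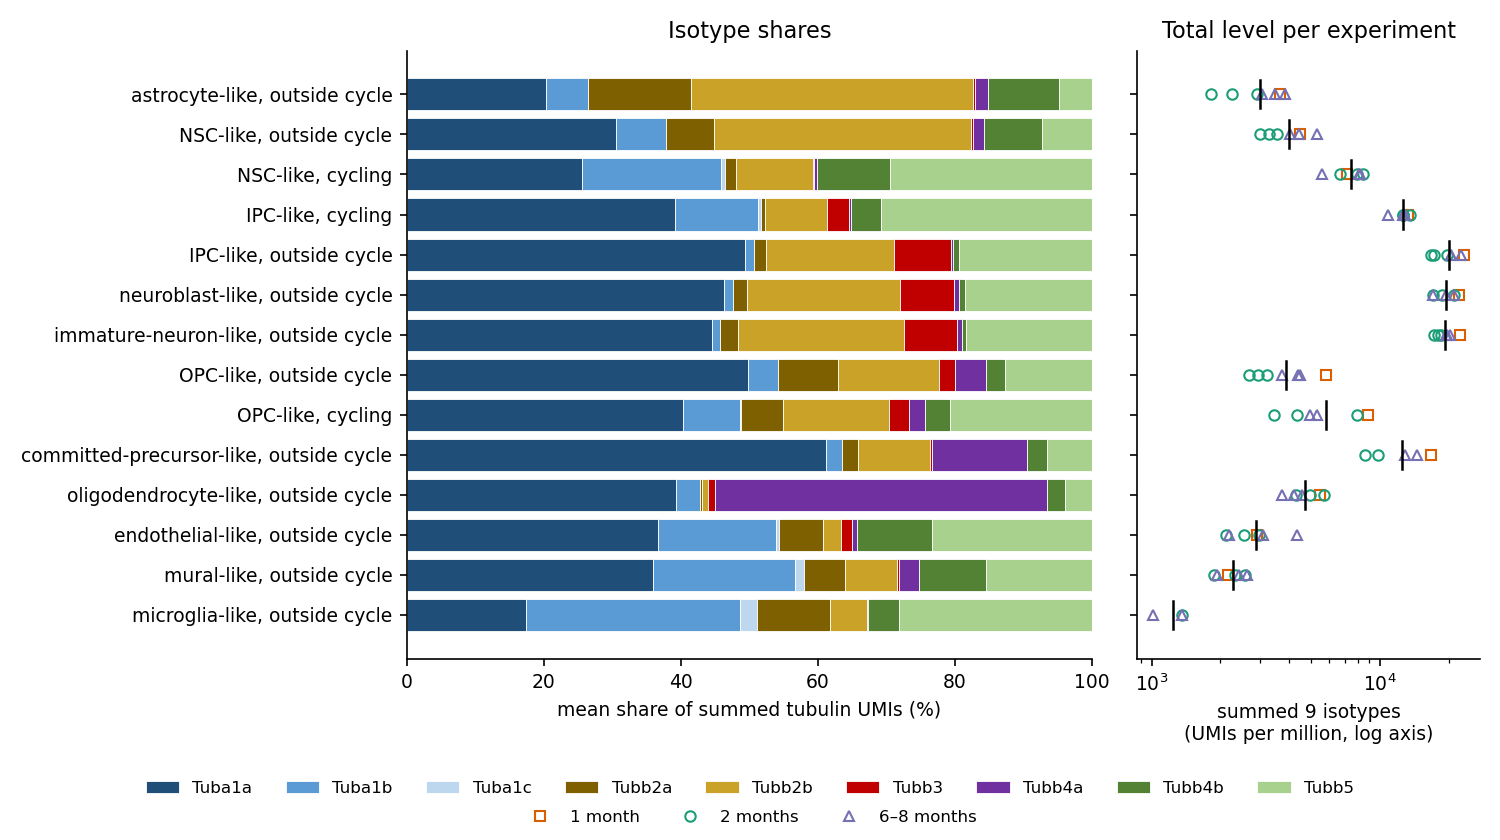
Left, mean share (%) of each isotype in the summed tubulin UMIs of 14 groups of cells (bars, means over experiments); right, summed level of the 9 isotypes in CPM (log axis) with 1 symbol per experiment by age and a black line at the mean. Of the β isotypes, Tubb2b had the broadest bar in astrocyte-like and NSC-like cells outside the cycle. By a smaller margin it also had it in neuroblast-like, immature-neuron-like and OPC-like cells outside the cycle. Tubb4a had it in oligodendrocyte-like cells. Of the α isotypes, Tuba1a had it in every group but microglia-like cells.

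The shares changed with the cell type, and isotypes are ordered here within the α or within the β family, since the order between them is uncertain. Tuba1a, the α isotype of postmitotic neurons, made up 46.3% ± 2.03 of tubulin UMIs in neuroblast-like cells and 61.3% ± 3.44 in committed-precursor-like cells, and was lowest in microglia-like cells (17.4% ± 5.10, n = 3) and astrocyte-like cells (20.4% ± 3.06). Tuba1b, the widespread α isotype, was 31.3% ± 3.76 in microglia-like cells, 20.7% ± 4.63 in mural-like cells and 17.1% ± 7.10 in endothelial-like cells but 1.13% ± 0.320 in immature-neuron-like cells. Tuba1c had the lowest mean share in 9 of 11 groups outside the cycle (Tubb4a was lower in microglia-like and Tubb3 in mural-like cells), up to 2.34% of tubulin UMIs in the group means outside the cycle, the highest again in microglia-like cells. The place of Tuba1c against the β isotypes is as uncertain as the order between the families. Tubb2b was the highest β isotype in 7 of 7 experiments in astrocyte-like cells (41.1% ± 4.20) and in NSC-like cells outside the cycle (37.5% ± 8.44), and its near copy Tubb2a was also highest in astrocyte-like cells (15.1% ± 1.28).

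Tubb3 made up 7.90% ± 0.968 of tubulin UMIs in neuroblast-like cells, 7.71% ± 0.562 in immature-neuron-like cells and 8.24% ± 0.595 in IPC-like cells outside the cycle, and at most 2.32% ± 0.5261 in the other groups outside the cycle, the highest of these being OPC-like cells; the 3 neuronal groups did not differ beyond their spread. Tubb4a made up 48.5% ± 8.24 in oligodendrocyte-like cells and 13.9% ± 7.46 in committed-precursor-like cells, followed by OPC-like cells (4.56% ± 4.50), and 2.99% ± 1.87 there without 2-month experiment 2, which had the highest level of oligodendrocyte markers. Tubb4b, found in cilia and in many dividing cells, was highest outside the cycle in endothelial-like (10.9% ± 4.08), astrocyte-like (10.5% ± 3.64), mural-like (9.80% ± 4.30) and NSC-like cells (8.51% ± 2.02), whose ranges overlapped. Tubb5, the widespread β isotype of proliferating and embryonic cells, ranged outside the cycle from 3.85% ± 0.604 in oligodendrocyte-like cells to 28.1% ± 2.90 in microglia-like cells.

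Cycling NSC-like cells held a different set of isotypes from NSC-like cells outside the cycle. Tubb5 in NSC-like cells outside the cycle ran from 200.01 to 357 CPM (median 284) and in cycling NSC-like cells from 1561 to 2772 CPM (median 2285). Tuba1b ran from 197 to 425 CPM (median 274) outside the cycle and from 1060.2 to 2008 CPM (median 1520.0) in cycling cells. Neither gene had overlapping groups. Both rose in 7 of 7 experiments, Tubb5 by a log2 fold change of 2.80 ± 0.12 (SE; edgeR quasi-likelihood test with Benjamini-Hochberg adjustment, adjusted p = 9.99e-121) and Tuba1b by 2.25 ± 0.11, adjusted p = 6.1e-85. Tubb4b (1.00 ± 0.11, adjusted p = 8.82e-18) and Tuba1a (0.47 ± 0.11, adjusted p = 0.0001) were also higher in 7 of 7 experiments.

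The pair on chromosome 13 went the other way. Tubb2b ran from 791 to 2288 CPM (median 1692) outside the cycle and from 507 to 1147 CPM (median 857) in cycling NSC-like cells; the groups overlapped, but within each of the 7 experiments the cycling cells were lower. Tubb2b fell by a log2 fold change of 1.08 ± 0.12 (adjusted p = 1.78e-18) and Tubb2a by 1.36 ± 0.12 (adjusted p = 2.3e-29). Thus 4 members rose and 2 fell of 6 tested, where 27.1% of the 5765 genes tested rose and 28.2% fell; with total UMIs in place of TMM scaling 63.0% of all called genes were higher, against 49.0% with TMM. Tuba1c, Tubb3 and Tubb4a had a UMI in under 20% of the cells of both groups and were not tested. Tuba1c had 152 UMIs in cycling NSC-like cells and 5 outside the cycle, and was higher in cycling cells in 5 of 7 experiments, with 0 UMIs in both groups in the other 2; with a filter of at least 10 summed UMIs it passed the test as higher (adjusted p = 1.63e-49).

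As shares of tubulin UMIs, Tubb2b was 11.2% ± 2.64 against 37.5% ± 8.44 in cycling against non-cycling NSC-like cells, a difference of −26.3 percentage points with the same sign in 7 of 7 experiments (two-sided exact sign-flip test, p = 0.0156, the smallest that 7 experiments allow; 72 such tests were made and p is unadjusted). Tubb5 was 29.4% ± 4.35 against 7.27% ± 2.20, and Tuba1b 20.3% ± 2.92 against 7.29% ± 2.48, each with the same exact p. Tuba1a rose in level and yet was a share of 25.5% ± 3.99 against 30.6% ± 6.65, a difference not past 0.05 (exact p = 0.141). The 8 neuroblast markers summed to 311 to 934 CPM in cycling and 128 to 357 CPM in non-cycling NSC-like cells, none of them at 0 in the class, against 7839.8 to 10779.7 CPM in neuroblast-like cells; their part in the result was not tested.

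**Figure D2:**
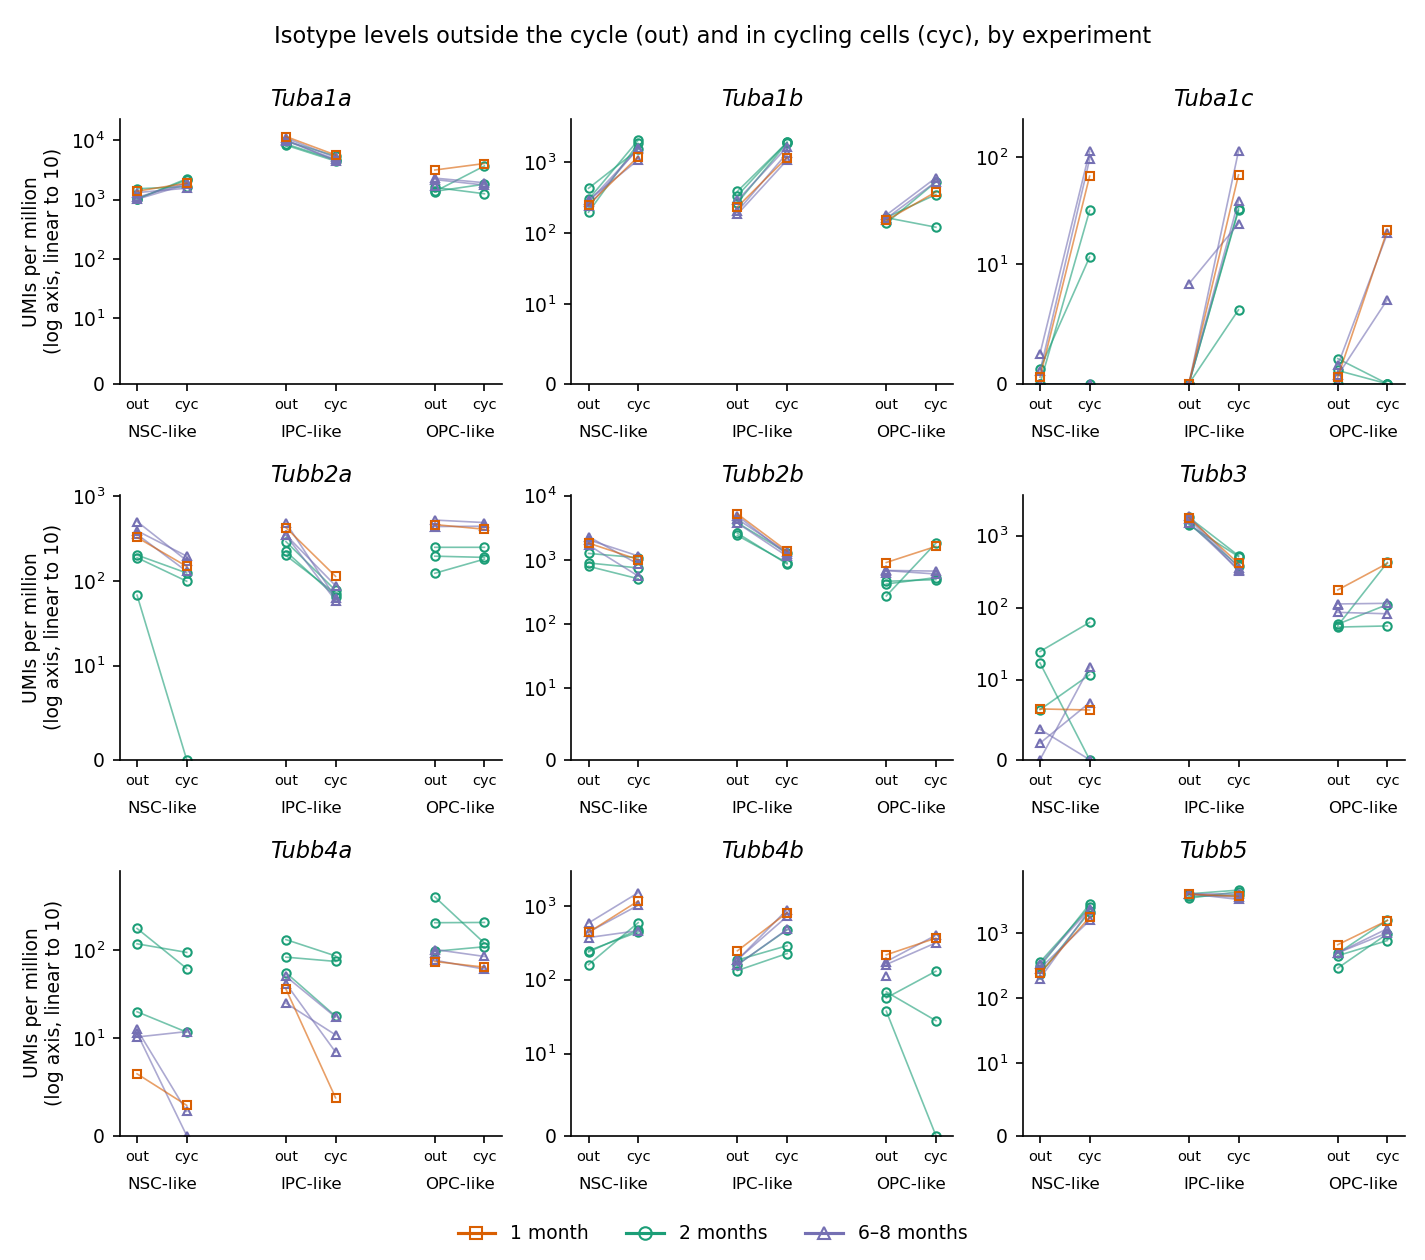
Level of each isotype in CPM (log axis, linear below 10) outside the cycle (out) and in cycling cells (cyc) of NSC-like, IPC-like and OPC-like cells; each symbol is 1 experiment, coloured by age, and lines join the groups of an experiment. Lines for Tuba1b ran upward in all 7 experiments in NSC-like and IPC-like cells, and those for Tubb2a and Tubb2b ran downward in both.

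IPC-like cells, the transit-amplifying progenitors on the way to neurons, held a neuronal set outside the cycle, and the cycling ones held less of it. Tubb3 ran from 1410.4 to 1854 CPM (median 1723) outside the cycle and from 325 to 527 CPM (median 379.9) in cycling IPC-like cells. Tuba1a ran from 8279 to 11591 CPM (median 9809.7) outside and from 4463 to 5648 CPM (median 4766) in cycling cells. Neither overlapped between the groups. Tubb3 fell by 2.04 ± 0.07 on the log2 scale (adjusted p = 2.93e-26), Tubb2a by 2.02 ± 0.11, Tubb2b by 1.72 ± 0.05 and Tuba1a by 1.00 ± 0.04, each in 7 of 7 experiments. Tubb4a also fell, by 1.40 ± 0.25 (adjusted p = 1.16e-05), with 105 UMIs outside the cycle and 133 in the larger cycling group; the 9 oligodendrocyte markers summed to 0.352 to 387 CPM in cycling and 1.17 to 432 CPM in non-cycling cells, and without 2-month experiments 2 and 3 the fall was by 2.06 (adjusted p = 1.63e-07). Tubb4a entered the test through cells outside the cycle, of which a mean of 23.9% held its UMIs, against 14.7% of cycling cells.

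Tuba1b ran from 184 to 386 CPM (median 266) outside the cycle and from 1057 to 1883 CPM (median 1606) in cycling IPC-like cells, without overlap, a log2 fold change of 2.45 ± 0.07, adjusted p = 3.52e-29. Tubb4b rose by 1.62 ± 0.11, adjusted p = 8.4e-17. Tubb5 was at 3880.2 ± 442 CPM in cycling and 3857 ± 230.0 CPM in non-cycling IPC-like cells and did not pass the test (−0.01 ± 0.05, adjusted p = 0.932); its share of tubulin UMIs was nevertheless 30.8% ± 3.27 against 19.4% ± 2.09 (exact p = 0.0156), the summed tubulin level being lower in the cycling cells. In all, 2 members rose and 5 fell of 8 tested, where 21.1% of 5544 genes rose and 21.6% fell. Tuba1c was not tested; it had 392 UMIs in cycling and 2 in non-cycling IPC-like cells and was higher in 7 of 7 experiments, and passed with a filter of at least 10 summed UMIs (adjusted p = 5.74e-32). The 8 neuroblast markers summed to 3979.9 to 6438 CPM in cycling and 7792 to 10085 CPM in non-cycling IPC-like cells, which moves with Tubb3 and Tuba1a; their part in the result was not tested.

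Within cycling neural progenitors (NSC-like and IPC-like cells pooled), 320 cells with many mitotic genes were compared with 385 cells with replication genes and few mitotic genes (S phase). Tuba1c, the rarest isotype, ran from 0 to 10.3 CPM (median 4.97) in S phase and from 11.99 to 218 CPM (median 100.2) in mitotic cells and rose most of the members, by 4.62 ± 0.23, adjusted p = 1.17e-21. Tuba1c made up 0.0562% ± 0.0396 of tubulin UMIs in S phase and entered the test through mitotic cells, where it was high. Tubb4b ran from 174 to 369 CPM (median 294) in S phase and from 384 to 1807 CPM (median 919.9) in mitotic cells (2.01 ± 0.08, adjusted p = 5.84e-25), without overlap. Tuba1b (1.34 ± 0.06) and Tubb5 (0.90 ± 0.04) were higher too, and the 4 genes were higher in mitotic cells in 7 of 7 experiments.

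Tubb3 fell by 0.94 ± 0.11 on the log2 scale from S phase to mitotic cells (adjusted p = 5.73e-10) and Tubb2b by 0.34 ± 0.07 (adjusted p = 0.00014). NSC-like and IPC-like cells were pooled in this comparison. Tubb3 was at 0 to 62.3 CPM in cycling NSC-like cells and 325 to 527 CPM in cycling IPC-like cells. The part of the mix of these classes in the differences between phases was not tested. Tuba1a (0.06 ± 0.05, adjusted p = 0.387) and Tubb2a (0.29 ± 0.13, adjusted p = 0.0878) did not pass the test, and Tubb4a was not tested. Of 8 members tested 4 rose and 2 fell, where 17.4% of 6449 genes rose and 16.7% fell; with total UMIs 41.0% of all called genes were higher, against 51.2% with TMM. By share, Tuba1a was 29.4% ± 4.33 against 41.6% ± 3.10 in mitotic against S-phase cells, and Tubb5 36.0% ± 4.66 against 28.8% ± 4.01 (exact p = 0.0156 for each). Tubb5 was the highest β isotype of both in 7 of 7 experiments.

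**Figure D3:**
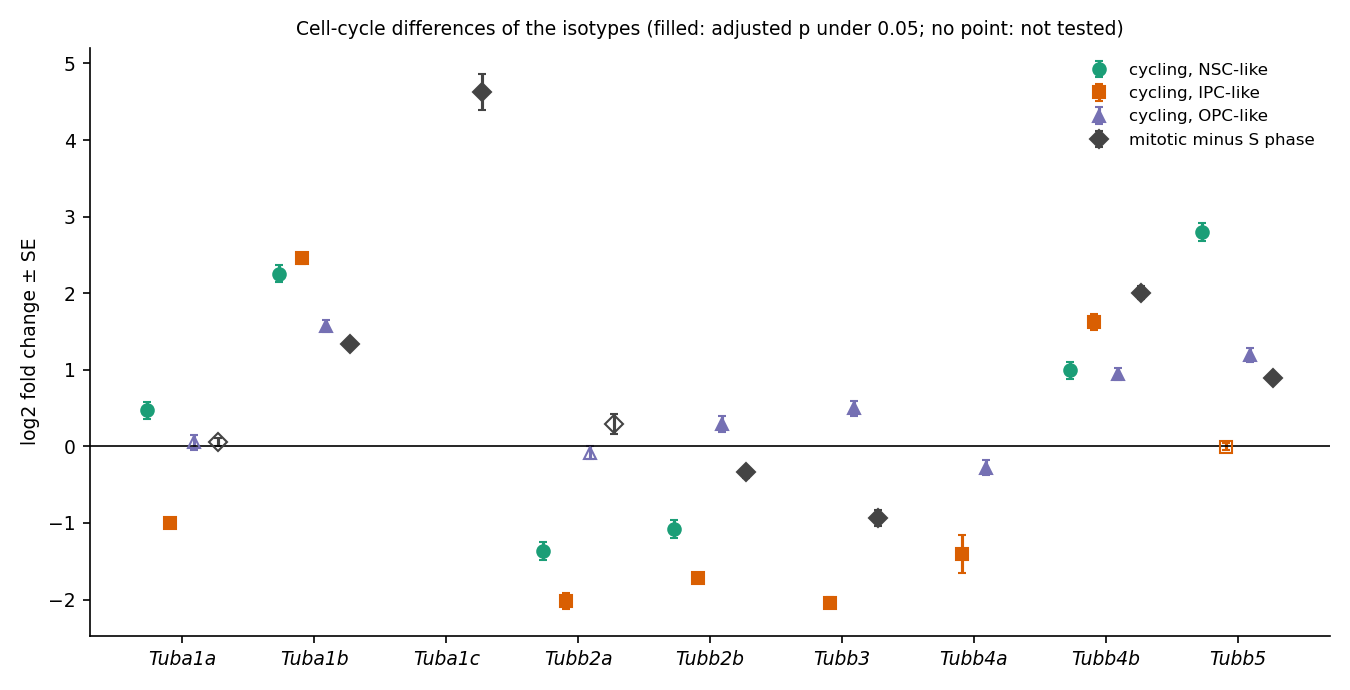
Log2 fold change ± SE of each isotype between cycling and non-cycling cells of 3 classes and between mitotic and S-phase progenitors; filled symbols have an adjusted p under 0.05, open symbols do not, and an isotype with no symbol was not tested in that comparison. Tuba1b and Tubb4b lay above 0 in all 4 comparisons, whereas Tubb2a, Tubb2b and Tubb3 lay below 0 in IPC-like cells.

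OPC-like cells, the dividing glial progenitors, shared the rise of the widespread isotypes. In cycling OPC-like cells (6 experiments), Tubb5 ran from 765 to 1574 CPM (median 1086) against from 289 to 661 CPM (median 494) outside the cycle, with no overlap and higher in 6 of 6 experiments (1.19 ± 0.09, adjusted p = 4.52e-25). Tuba1b ran from 121 to 597 CPM (median 449.9) in cycling cells and from 138 to 179 CPM (median 160.5) outside (1.58 ± 0.08, adjusted p = 3.67e-41); it was higher in 5 of 6 experiments, the exception resting on 2 UMIs in 6 cells. Tubb4b also rose (0.95 ± 0.08, adjusted p = 1.32e-21), in 4 of 6 experiments. Tubb2b (0.29 ± 0.10, adjusted p = 0.0327) and Tubb3 (0.50 ± 0.10, adjusted p = 2.21e-05) passed the test as higher and Tubb4a as lower (−0.28 ± 0.09, adjusted p = 0.0241), while Tuba1a (0.05 ± 0.10, adjusted p = 0.783) and Tubb2a (−0.08 ± 0.08, adjusted p = 0.553) did not pass it. So 5 members rose and 1 fell of 8 tested, where 9.98% of 6873 genes rose and 9.14% fell; Tuba1c, with 86 UMIs in cycling and 29 in non-cycling cells, was not tested, and passed as higher with a filter of at least 10 summed UMIs (adjusted p = 1.36e-24), although higher in 3 of 6 experiments and lower in 2.

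The calls for Tubb2b and Tubb3 were lost without the experiment at 1 month. Tubb3 was at 411 CPM in its cycling and 176 CPM in its non-cycling OPC-like cells, and without that experiment the log2 fold changes were 0.01 for Tubb3 (adjusted p = 0.925) and −0.07 for Tubb2b (adjusted p = 0.365), and Tuba1a was then lower (−0.21, adjusted p = 0.00408). The 8 neuroblast markers summed to 2716 CPM in these cycling cells at 1 month and to 4965 CPM in the 6 cycling cells of the second 2-month experiment, against 403 to 1433 CPM in the other 4 experiments and 467 to 1067 CPM in non-cycling OPC-like cells; their part in the result was not tested. Over 15 alternatives Tubb2b kept its call in 5, Tubb3 in 10 and Tubb4a in 7. Tubb2b was also lost without 2-month experiment 2 (0.22, adjusted p = 0.167), and Tubb4a when any of 3 experiments was left out (adjusted p between 0.0625 and 0.262), 2-month experiment 2 among them. The 9 oligodendrocyte markers summed to 4.42 to 545 CPM in cycling and 6.88 to 742 CPM in non-cycling OPC-like cells, highest in that experiment in both; their part in the Tubb4a result was not tested.

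The cycling effect itself was compared between OPC-like and IPC-like cells with an interaction term over 6 experiments. The log2 fold change was higher in OPC-like cells by 2.59 ± 0.31 for Tubb3 (adjusted p = 4.43e-07), 2.02 ± 0.24 for Tubb2b (adjusted p = 2.64e-07) and 1.89 ± 0.22 for Tubb2a (adjusted p = 2.18e-07). The difference was also positive for Tubb5 (1.06 ± 0.18, adjusted p = 8.5e-05) and Tuba1a (0.97 ± 0.20, adjusted p = 0.000956), and these 5 genes went in the same direction in 6 of 6 experiments. Tubb4a passed the test with 1.06 ± 0.32, adjusted p = 0.0244, in 5 of 6 experiments, and kept it under 6 of 15 alternatives; without 2-month experiments 2 and 3 it was 1.72 (adjusted p = 0.00209). For Tuba1b, which rose in both classes, it was −1.01 ± 0.20, adjusted p = 0.000831, so that the rise was smaller in OPC-like cells, and for Tubb4b it did not pass the test (−0.73 ± 0.25, adjusted p = 0.0565), though it did under 5 of 15 alternatives, among them without 2-month experiment 2 (adjusted p = 0.0339). Of 8 members tested 6 were higher and 1 lower, where 5.44% of 7458 genes were higher and 5.19% lower; with total UMIs 66.7% of all called genes were higher, against 51.2% with TMM.

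Promoters were searched because many genes of the mitotic phase carry a cell cycle homology region (TTTGAA or TTCGAA) near CCAAT boxes. The part of these motifs in the levels of the isotypes in cycling cells was not tested. RefSeq promoters of GRCm38 were matched for 8 of the 9 members, and Tubb2b was not in the table used. In the 250 bases before the RefSeq start site, searched on both strands, CCAAT (or ATTGG) occurred in Tuba1a (1 match), Tuba1c (1), Tubb3 (1), Tubb5 (2) and Tubb4b (5) and not in Tuba1b, Tubb2a or Tubb4a; 33.8% of 32851 promoters of the same length held it. For Tuba1a, Tuba1b, Tubb3, Tubb4a and, by a few bases, Tubb5, this window reaches into the GENCODE gene given above, as with chr15:98953502-98953751 for Tuba1a. The lack of a match in Tuba1b and Tubb4a thus covers fewer bases before those genes. TTTGAA (or TTCAAA), found in 16.0% of those promoters, occurred in Tubb4b alone, and TTCGAA (1.34%) in none of the 8. The bases before the start of Tubb4b (chr2:25224703-25224952, minus strand) are printed for that reason, with the matches in capitals. A match is a description of the letters and not evidence of a bound factor.
Tubb4b: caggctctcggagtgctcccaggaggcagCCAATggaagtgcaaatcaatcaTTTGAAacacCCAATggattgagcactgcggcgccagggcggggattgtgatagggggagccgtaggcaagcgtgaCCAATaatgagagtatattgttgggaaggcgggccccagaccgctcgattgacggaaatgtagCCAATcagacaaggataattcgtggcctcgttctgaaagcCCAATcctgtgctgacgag

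Neuroblast-like cells are the young postmitotic progeny of IPCs. Against NSC-like cells outside the cycle each of the 8 members tested passed the test, Tuba1b by a small margin. Tubb3 was at 0 to 24.6 CPM (median 6.25) in NSC-like cells and 1285 to 1943 CPM (median 1521) in neuroblast-like cells, a log2 fold change of 7.98 ± 0.21, adjusted p = 4.55e-19. Tubb5 ran from 200.01 to 357 CPM (median 284) in NSC-like and from 3185 to 4177 CPM (median 3639) in neuroblast-like cells (3.73 ± 0.11, adjusted p = 7.03e-18), and Tuba1a from 1013 to 1523 CPM (median 1089) and from 7374 to 10263 CPM (median 9216) (2.93 ± 0.12, adjusted p = 4.49e-16). None of the 3 overlapped. Tubb2b (1.57 ± 0.12), Tubb4a (2.06 ± 0.32) and Tubb2a (0.63 ± 0.14) were higher as well, although the shares of Tubb2b (22.3% ± 3.40 against 37.5% ± 8.44) and Tubb2a (2.16% ± 0.563 against 7.01% ± 2.61) were lower in neuroblast-like cells in 7 of 7 experiments (exact p = 0.0156 for each). Tubb3 and Tubb4a entered the test through neuroblast-like cells. A mean of 90.9% and 36.4% of these cells held their UMIs, against 2.12% and 10.6% of NSC-like cells.

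Tubb4b fell from NSC-like to neuroblast-like cells by 1.18 ± 0.15 on the log2 scale (adjusted p = 1.45e-07). Tuba1b passed the test as lower by a small margin (−0.30 ± 0.13, adjusted p = 0.0454) and lost it without any of 4 experiments, among them the one at 1 month (−0.16, adjusted p = 0.319). Tuba1b kept its call under 8 of 16 alternatives and Tubb2a under 14. In all 6 members rose and 2 fell, where 37.1% of 3576 genes rose and 36% fell; Tuba1c had 3 and 5 UMIs and was not tested. Immature-neuron-like cells are a later stage, and their isotype levels were not told apart from those of neuroblast-like cells. Of 8 members tested 0 passed the edgeR test (and 0 with DESeq2), where 0.68% of 4118 genes were higher and 0.777% lower and 376 had an unadjusted p under 0.05; the log2 fold changes lay between −0.35 ± 0.13 for Tubb4b (adjusted p = 0.25) and 0.16 ± 0.08 for Tubb2a (adjusted p = 0.542). By share, Tubb2b was 24.3% ± 4.26 against 22.3% ± 3.40 in immature-neuron-like against neuroblast-like cells (higher in 7 of 7, exact p = 0.0156) and Tuba1a 44.6% ± 2.11 against 46.3% ± 2.03 (lower in 7 of 7, same exact p); with the stricter cycling call the Tuba1a difference turned from −1.73 to 0.499 percentage points (exact p = 0.656).

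Astrocyte-like cells had the Tubb2b-led set of NSC-like cells with more Tubb2a. Tubb2a ran from 276 to 615 CPM (median 506) in astrocyte-like and from 68.1 to 505 CPM (median 328) in NSC-like cells; the groups overlapped, but Tubb2a was higher in astrocyte-like cells in 7 of 7 experiments (0.79 ± 0.12, adjusted p = 6.18e-06) and its share was 15.1% ± 1.28 against 7.01% ± 2.61 (exact p = 0.0156). Tubb5 (−0.81 ± 0.12, adjusted p = 6.53e-06), Tuba1a (−0.78 ± 0.11, adjusted p = 2e-06) and Tuba1b (−0.40 ± 0.12, adjusted p = 0.00764) were lower, each in 7 of 7 experiments. Tubb2b (−0.13 ± 0.09, adjusted p = 0.205) and Tubb4b (0.12 ± 0.10, adjusted p = 0.33) did not pass the test; Tubb2b passed as lower with total UMIs (−0.30, adjusted p = 0.004) and under 3 other of 16 alternatives, among them without 2-month experiment 2 (−0.20, adjusted p = 0.0476). Of 6 members tested 1 rose and 3 fell, where 27% of 3284 genes rose and 26.9% fell. With total UMIs 32.5% of all called genes were higher, against 50.0% with TMM. Tuba1c, Tubb3 and Tubb4a were not tested, with 4, 24 and 102 UMIs in astrocyte-like cells.

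Oligodendrocyte-like cells, the myelinating end of the lineage, were set apart by Tubb4a. It ran from 74.8 to 408 CPM (median 97.9) in OPC-like cells, from 983 to 1987 CPM (median 1754) in committed-precursor-like cells (5 experiments) and from 1599 to 3374 CPM (median 2153) in oligodendrocyte-like cells; the lowest oligodendrocyte-like value lay above the highest OPC-like one. The log2 fold change of oligodendrocyte-like over OPC-like cells was 4.71 ± 0.22, adjusted p = 1.84e-11, and the share of tubulin UMIs 48.5% ± 8.24 against 4.56% ± 4.50 (exact p = 0.0156). Tubb2a ran from 124 to 526 CPM (median 433) in OPC-like and from 6.33 to 22.9 CPM (median 14.4) in oligodendrocyte-like cells, and fell by 3.86 ± 0.15 on the log2 scale. Tubb2b fell by 3.33 ± 0.21, Tubb5 by 0.86 ± 0.10 and Tubb3 by 0.63 ± 0.15. Each was lower in 7 of 7 experiments. Tubb2a and Tubb2b entered the test through OPC-like cells. A mean of 60.9% and 69.8% of these cells held their UMIs, against 7.68% and 7.28% of oligodendrocyte-like cells.

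Tuba1a (0.47 ± 0.11), Tuba1b (0.54 ± 0.07) and Tubb4b (0.53 ± 0.09) passed the test as higher in oligodendrocyte-like cells with TMM scaling, which brings 4 rising and 4 falling members of 8 tested beside 39.6% and 40.8% of 5500 genes. Those 3 rises depend on the scaling: by total UMIs they were −0.05 (adjusted p = 0.627), 0.02 (adjusted p = 0.908) and 0.03 (adjusted p = 0.791), and each was higher in 3 or 4 of 7 experiments. With total UMIs 25.0% of all called genes were higher, against 49.3% with TMM. Total UMIs moved the median of all genes from −0.01 to −0.53 in this comparison, from −0.05 to −0.22 for astrocyte-like against NSC-like cells, from −0.01 to 0.17 for cycling NSC-like cells and from −0.05 to 0.06 for the interaction. Tuba1c had 21 and 29 UMIs and was not tested.

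Tubb4a in NSC-like, mural-like and endothelial-like cells was highest in 2-month experiments 2 and 3. In NSC-like and mural-like cells, but not in endothelial-like cells, these experiments also had the highest oligodendrocyte markers. In 2-month experiments 2 and 3, Tubb4a was at 178 and 119 CPM (29 and 14 UMIs) in NSC-like cells outside the cycle, against 6.34 to 20 CPM in the other 5 experiments. In mural-like cells it was at 276 and 68.5 CPM (21 and 3 UMIs) in experiments 2 and 3, against 14.5 to 40.5 CPM. In those NSC-like cells the 9 oligodendrocyte markers summed to 609 and 170.2 CPM against 5.51 to 99.998 CPM. None of the 9 was at 0 over the class. In endothelial-like cells Tubb4a was at 84.9 and 27.2 CPM (6 and 1 UMIs) in 2-month experiments 2 and 3, with 636 and 300 CPM of the markers. In the other 5 experiments it was at 0 to 23.5 CPM there, with 404 to 713 CPM of the markers. Oligodendrocyte-like cells were 47.9% of kept cells in the second 2-month experiment, and between 0.487% and 66.0% over all 7. The 66.0% was in experiment 4, at 6–8 months, where Tubb4a was at 11.4 CPM in NSC-like cells outside the cycle.

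In neuroblast-like cells Tubb4a was at 66.0 to 285 CPM, above mural-like cells of the same experiment in 7 of 7. At 1 month, where the 9 oligodendrocyte markers were at 0 in neuroblast-like cells, Tubb4a was at 79.7 CPM. Without 2-month experiments 2 and 3 the rise of Tubb4a from NSC-like to neuroblast-like cells was 2.99 (adjusted p = 9.28e-09) and that from OPC-like to oligodendrocyte-like cells 5.03 (adjusted p = 5.44e-12). The part of oligodendrocyte transcripts in the levels of Tubb4a in the other classes was not tested.

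**Figure D4:**
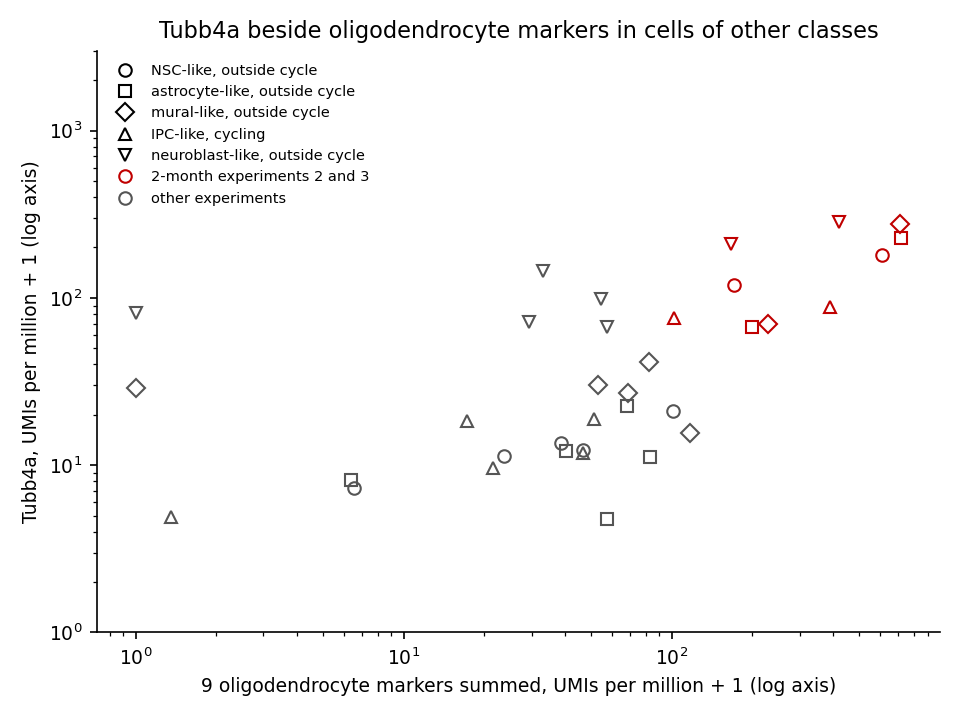
Tubb4a against the summed level of the 9 oligodendrocyte markers, both in CPM plus 1 on log axes, in 5 classes of cells outside the oligodendrocyte lineage; each symbol is 1 class in 1 experiment, and red marks 2-month experiments 2 and 3. The red symbols lie highest on both axes within each class shown, and in each experiment the neuroblast-like symbol lies above the mural-like one. Endothelial-like cells are not shown.

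Shares by age were compared between 3 experiments at 2 months and 3 at 6–8 months, where the smallest exact permutation p is 0.1, and the experiment at 1 month has no replicate. Of 72 sets (9 isotypes in 8 groups of cells) 37, or 51.4%, did not overlap between these ages. Overlap was not counted over all genes, so this and the counts below are not read as particular to tubulin isotypes. Tubb4b was lower at 2 months, without overlap, in 7 of 8 groups of cells, the exception being IPC-like cells outside the cycle. In NSC-like cells outside the cycle it was 6.53% ± 1.01 at 2 months, 10.1% ± 0.901 at 6–8 months and 9.79% at 1 month, in astrocyte-like cells 6.99% ± 2.04 at 2 months, 12.9% ± 1.80 at 6–8 months and 13.8% at 1 month, and in oligodendrocyte-like cells 1.24% ± 0.415 at 2 months, 3.44% ± 0.597 at 6–8 months and 4.49% at 1 month (15 cells at 1 month). The exact permutation p was 0.1 in each of these, and 1 month, which shares chemistry Version 3 with 6–8 months, was nearer to the latter. Tuba1b was higher at 2 months without overlap in 5 groups, as in cycling IPC-like cells, with 14.4% ± 0.460 at 2 months, 10.9% ± 1.43 at 6–8 months and 8.67% at 1 month, and lower in 1, oligodendrocyte-like cells, with 3.13% ± 0.266 at 2 months, 3.89% ± 0.0976 at 6–8 months and 3.48% at 1 month. In NSC-like cells outside the cycle, Tubb2b was 30.2% ± 8.05 at 2 months, 43.8% ± 2.23 at 6–8 months and 40.6% at 1 month, and Tuba1a 36.2% ± 5.97 at 2 months, 24.8% ± 0.302 at 6–8 months and 30.9% at 1 month; neither overlapped between 2 and 6–8 months (exact permutation p = 0.1 for each). Tubb4a in oligodendrocyte-like cells was 56.7% ± 2.38 at 2 months, 43.4% ± 3.75 at 6–8 months and 39.3% at 1 month (exact permutation p = 0.1). Age and chemistry cannot be told apart in these differences.

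**Figure D5:**
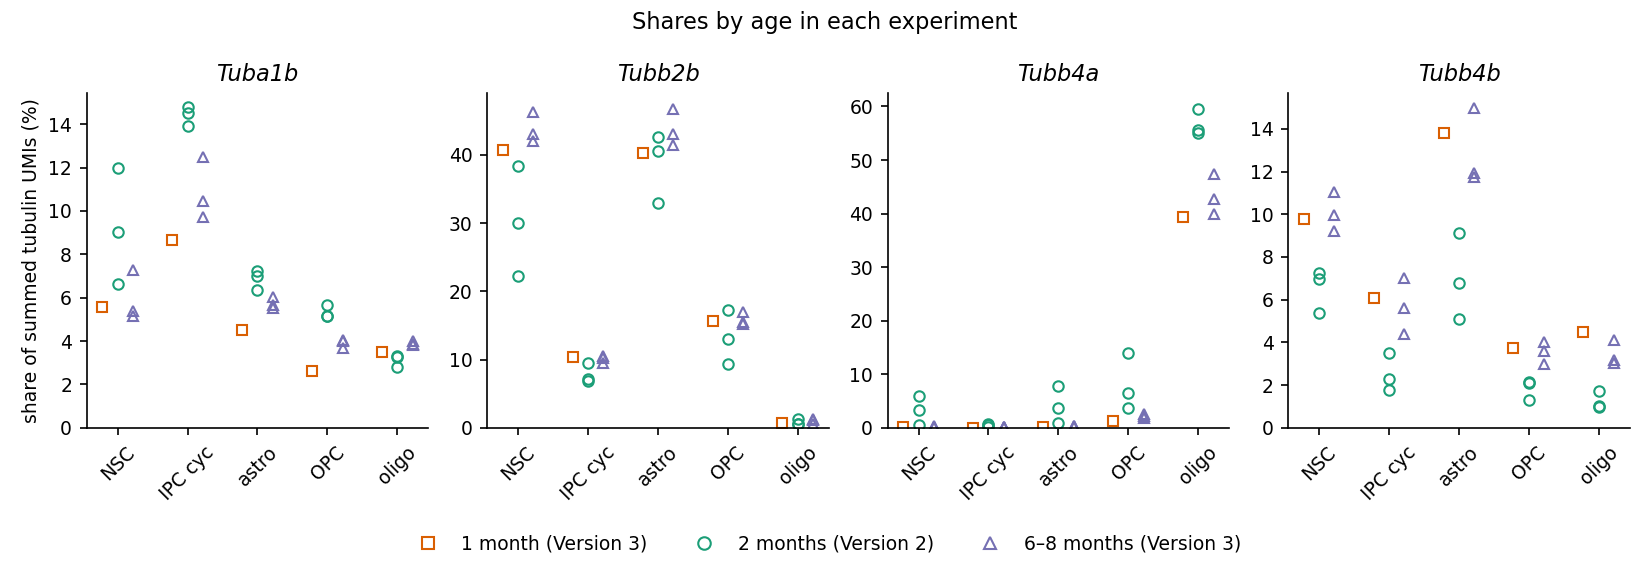
Share of tubulin UMIs (%) of Tuba1b, Tubb2b, Tubb4a and Tubb4b in 5 groups of cells (NSC-like outside the cycle, cycling IPC-like, astrocyte-like, OPC-like and oligodendrocyte-like), 1 symbol per experiment by age and chemistry version. For Tubb4b the 3 experiments at 2 months lie below those at 1 month and at 6–8 months in each group.

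Per cell, the isotypes were counted after thinning each cell to 2000 UMIs, which left out shallower cells. Neuroblast-like cells then held UMIs of 5.10 ± 0.226 of the 9 isotypes, NSC-like cells outside the cycle 3.59 ± 0.386, oligodendrocyte-like cells 2.74 ± 0.0843 and microglia-like cells 1.65 ± 0.218 (n = 3). Thinning set all UMIs alike but not tubulin UMIs. The summed tubulin level was 19530 CPM in neuroblast-like, 4004 CPM in NSC-like, 4692 CPM in oligodendrocyte-like and 1244 CPM in microglia-like cells. The part of this level in the number of isotypes found was not tested. A UMI of Tubb3 was found in 87.9% ± 4.74 of neuroblast-like cells (90.9% before thinning) and in 0.227% ± 0.508 of mural-like cells (0.201% before thinning, n = 5), which should lack it; the median depth per experiment was 2024 to 6188 UMIs in the former and 1157 to 3214 in the latter. Tubb4a was found in 94.9% ± 4.67 of oligodendrocyte-like cells, in 9.39% ± 13.5 of NSC-like cells outside the cycle (n = 7) and in 6.10% ± 3.81 of mural-like cells (n = 5). The mural-like values leave out 2-month experiments 2 and 3, where the level of Tubb4a was highest in both classes. The NSC-like and mural-like values of Tubb4a thus cover unlike sets of experiments and are not compared. Tuba1b was found in 77.4% ± 11.2 of cycling and 42.3% ± 13.8 of non-cycling NSC-like cells.

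Across 18 groups of cells the isotypes were alike to differing degrees (Pearson r of mean log2(CPM + 1), a description over groups that share libraries). Tuba1a was most alike to Tubb3 (r = 0.89), Tuba1b to Tuba1c (r = 0.85), and Tubb5 to Tubb3 (r = 0.79) and Tuba1a (r = 0.77); Tuba1a and Tuba1b, whose coding sequences are 98.3% identical, had r = 0.11, and Tubb4a had r between −0.54 against Tuba1c and 0.53 against Tuba1a. The genes outside the list with the nearest pattern among 8849 were, for Tubb3, Dcx (r = 0.96), Crmp1 (r = 0.96), Neurod1 (r = 0.96), of which Dcx and Neurod1 mark neuroblasts. Neurod1 is among the markers that gated neuroblast-like and immature-neuron-like cells, so the gate partly set its pattern. For Tubb5 they were Hnrnpa1 (r = 0.98), Eif3e (r = 0.97), Smarce1 (r = 0.95), for Tuba1a Map1b (r = 0.95), Ehd1 (r = 0.94), Cyth2 (r = 0.94), and for Tubb4a Agpat4 (r = 0.97), Arpc1a (r = 0.95), Sv2a (r = 0.94). For Tuba1b they were Hmgb2 (r = 0.92), Slbp (r = 0.90), Rnaseh2c (r = 0.90), of which Hmgb2 and Slbp, the histone mRNA binding protein, are cell cycle genes. For Tubb2b they were Ptprs (r = 0.94), Nnat (r = 0.94), Pdxp (r = 0.94), and for Tubb2a, Tuba1c and Tubb4b the nearest were Xpr1 (r = 0.88), Rnaseh2c (r = 0.81) and Aifm1 (r = 0.84).

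The genes of proteins that fold, modify and organise tubulin were followed as lists, with log2 fold changes in parentheses for members that passed the test. Of 20 folding genes (the CCT chaperonin, prefoldin and the tubulin cofactors) in cycling NSC-like cells, 12 rose and 1 fell of 18 tested (median log2 fold change 0.58 against −0.01 over all genes; 27.1% and 28.2% of all genes rose and fell), led by the CCT subunits Cct7 (1.00), Tcp1 (0.98), Cct4 (0.86) and Cct8 (0.85). In neuroblast-like against NSC-like cells 13 rose and 1 fell of 16 tested (median log2 fold change 0.93 against 0.01 over all genes; 37.1% and 36% of all genes rose and fell), among them the prefoldin subunit Pfdn4 (1.91) and the CCT subunit Cct5 (1.33). In astrocyte-like against NSC-like cells 0 rose and 10 fell of 15 tested (median log2 fold change −0.42 against −0.05 over all genes; 27% and 26.9% of all genes rose and fell), Cct3 (−0.66) and Cct5 (−0.59) being lowest. In cycling IPC-like cells 4 rose and 3 fell of 18 tested (median log2 fold change −0.06 against −0.01 over all genes; 21.1% and 21.6% of all genes rose and fell), in cycling OPC-like cells 2 rose and 1 fell of 18 tested (median log2 fold change 0.06 against −0.03 over all genes; 9.98% and 9.14% of all genes rose and fell), from S phase to mitosis 2 rose and 2 fell of 18 tested (median log2 fold change 0.04 against −0.02 over all genes; 17.4% and 16.7% of all genes rose and fell), and in oligodendrocyte-like cells 10 rose and 3 fell of 18 tested (median log2 fold change 0.39 against −0.01 over all genes; 39.6% and 40.8% of all genes rose and fell), the cofactor GTPase Arl2 (2.63) and the prefoldin subunit Vbp1 (1.47) rising most. With total UMIs 4 rose and 8 fell in oligodendrocyte-like cells (median −0.12), 1 rose and 6 fell in mitotic cells, and 14 rose and 1 fell in cycling NSC-like cells. In immature-neuron-like cells 0 of 18 passed the edgeR test (and 0 with total UMIs), where 0.68% and 0.777% of all genes rose and fell.

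Of 25 nucleation, tip and lattice genes, the spindle motor Kif11 and the spindle assembly factor Tpx2 were higher in cycling NSC-like cells. They had 131 and 352 UMIs there against 2 and 10 outside the cycle. The same held in cycling IPC-like cells (612 and 1535 UMIs against 1 and 13). It also held in mitotic against S-phase cells (721 and 1710 UMIs against 5 and 46). Both genes entered these tests through the cycling or mitotic cells, where they were high. Those cells were themselves called by cell cycle genes, so the rises of Kif11 and Tpx2 are not independent of the calls. The shares of all genes called in each comparison are those given for the folding genes. Of the whole list, 6 rose and 4 fell of 16 tested (median log2 fold change 0.13 against −0.01 over all genes) in cycling NSC-like cells. In cycling IPC-like cells 7 rose and 6 fell of 19 tested (median log2 fold change −0.12 against −0.01 over all genes), in cycling OPC-like cells 5 rose and 3 fell of 17 tested (median log2 fold change −0.01 against −0.03 over all genes) and in mitotic cells 6 rose and 2 fell of 18 tested (median log2 fold change 0.14 against −0.02 over all genes). In oligodendrocyte-like cells 13 rose and 2 fell of 15 tested (median log2 fold change 1.06 against −0.01 over all genes), with the tubulin polymerization promoting proteins Tppp3 (7.22) and Tppp (4.92) and the kinesin activator Map7 (3.26) higher and the dendritic protein Map2 (−2.98) lower; with total UMIs 9 rose and 4 fell. In neuroblast-like cells 6 rose and 1 fell of 11 tested (median log2 fold change 0.39 against 0.01 over all genes), with the neuronal kinesin Kif5c (3.796) and the axonal protein Map1b (1.96) higher and the polymerase Ckap5 (−1.79) lower, and in astrocyte-like cells 2 rose and 2 fell of 10 tested (median log2 fold change 0.18 against −0.05 over all genes), Map1b being lower (−2.81).

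Of the 16 modification and autoregulation genes, 3 to 6 could be tested in a comparison. The shares of all genes called in each comparison are those given for the folding genes. In cycling OPC-like cells 0 of 6 tested passed, in mitotic cells 0 of 5 and in immature-neuron-like cells 0 of 5. With total UMIs 1 fell in mitotic cells. In cycling IPC-like cells 0 rose and 4 fell of 4 tested (median log2 fold change −0.76 against −0.01 over all genes, of which 21.1% rose and 21.6% fell): the glutamylase Ttll1 (−1.13), the acetyltransferase Atat1 (−0.86), Svbp, the partner of the detyrosinating vasohibins (−0.65), and Ttc5, the reader of tubulin autoregulation (−0.40). In neuroblast-like cells 3 rose and 1 fell of 4 tested (median log2 fold change 0.66 against 0.01 over all genes, of which 37.1% rose and 36% fell), Atat1 (1.79), Svbp (0.86) and Ttc5 (0.45) being higher and the glycylase Ttll3 lower (−4.09). Ttll3 was also lower in cycling NSC-like cells (−2.05, the 1 called of 4 tested) and in astrocyte-like cells (−1.16, the 1 called of 3 tested), relative to NSC-like cells outside the cycle. In oligodendrocyte-like cells 1 rose and 3 fell of 5 tested, the glutamylase Ttll7 being higher (4.55) and Ttll1 among the lower (−1.68). Of 11 other tubulins at most 1 was tested in a comparison: γ-tubulin Tubg1, which nucleates microtubules at the centrosome, was higher in cycling NSC-like (1.498), IPC-like (1.00) and OPC-like cells (0.81), and in mitotic cells (0.90). In oligodendrocyte-like cells Tubg1 passed as higher with TMM (0.32) and was −0.19 with total UMIs (adjusted p = 0.0882), and the α isotype Tuba4a was higher in astrocyte-like cells (2.61).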

How the data were processed

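Single-cell RNA libraries (10x 3′) were made by the authors with Cell Ranger 3.0.2 on a custom GRCm38 reference (mm10), aggregated without depth normalization and deposited as a matrix of whole UMI counts; cutadapt 1.18 and Seurat are also named in the submitters' processing notes. The reference was made with Cell Ranger's mkref and held added reporter elements (GFP and parts of the tdTomato allele), with the tdTomato coding sequence switched off. Libraries held 4861883 to 43826338 UMIs, with a median of 1960 to 7636.5 UMIs per barcode.

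From these deposited counts, cells were required to show more than 500 genes and less than 10% of their UMIs from mitochondria, and were gated by counts of detected markers: an NSC-like cell had at least 3 of 10 NSC markers and 4 of 7 markers shared with astrocytes, an IPC-like cell 3 of 6, a neuroblast-like cell 4 of 8, an immature-neuron-like cell 3 of 8, an OPC-like cell 4 of 7, an astrocyte-like cell 4 of 9 and an oligodendrocyte-like cell 6 of 9, with limits on markers of some other lineages. Markers of IPCs, neuroblasts and immature neurons were not limited in OPC-like, committed-precursor-like, oligodendrocyte-like, endothelial-like, mural-like and microglia-like cells. Cells outside the cycle had at most 1 (Version 2) or 2 (Version 3) of 9 G1/S genes and of 14 mitotic genes. Mitotic cells had at least 7 mitotic genes, and S-phase cells at least 4 G1/S genes and at most 3 mitotic genes. UMIs were summed per experiment and group (at least 5 cells, and at least 20 tubulin UMIs for a share) and tested with edgeR 4.0.16 (quasi-likelihood, TMM, R 4.3.3, limma 3.58.1) with experiment as a block, since all groups of an experiment come from the same mice and day; a gene was tested where 20% or more of the cells in 1 of the groups held its UMIs, and p-values were adjusted by Benjamini-Hochberg over all genes tested, at 0.05. A gene could thus enter a test through its higher group alone. edgeR shares the estimate of spread between genes, so its p-values can be far below the 0.0156 that an exact test over 7 experiments allows. For shares, an exact sign-flip test (two-sided) was run over experiments, and ages with exact permutation tests (scipy 1.17.1, Python 3.11.15). SDs cover the spread between experiments, and the SEs of log2 fold changes rest on the same shared estimate as the edgeR p-values.

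The members, the marker lists and the lists of partner genes were chosen with earlier results of these data known. All 9 members are reported in every comparison; the genes nearest in pattern are the 3 with the highest correlation, and a partner list names at most 4 members with the largest log2 fold change among those that passed. Alternatives were DESeq2 1.42.0, total UMIs, at least 10 summed UMIs in place of the 20% filter, no replicate block, stricter gates, stricter cycling calls, the mean over cells of each cell's share, and each experiment left out. Another 3 were chosen after seeing the data: without 2-month experiments 2 and 3, and either chemistry version alone. The edgeR and share scripts were tested on simulated data.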

Additional observations from a re-analysis of the deposited data

Results flagged for a closer look

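Of 72 sets of share differences (9 isotypes in 8 comparisons, in percentage points of tubulin UMIs), 10 held 1 experiment far from the others; about 1 in 20 sets would by chance. Tubb4a stood apart in the second 2-month experiment in 4 of them. Its share difference between cycling and non-cycling cells was −5.25 in NSC-like cells (others −1.94 to −0.0883) and −12.5 in OPC-like cells (others −1.11 to −0.373, from 6 cycling cells), and it was −0.842 between mitotic and S-phase progenitors (others −0.244 to 0.0475) and 1.78 between astrocyte-like and NSC-like cells (others −0.128 to 0.344). That experiment also had the highest summed level of the 9 oligodendrocyte markers in NSC-like, astrocyte-like, mural-like, cycling IPC-like and neuroblast-like cells; their part in these differences was not tested.

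The third 2-month experiment, with 53 NSC-like cells outside the cycle, stood apart in another 4. Against NSC-like cells, the share of Tuba1a in astrocyte-like cells differed by −21.2 (others −10.4 to −6.34), that of Tubb2b in astrocyte-like cells by 18.3 (others −0.523 to 4.17) and that of Tubb2a in neuroblast-like cells by −0.333 (others −6.90 to −4.36). The share of Tubb3 in its cycling NSC-like cells differed by −0.480 (others −0.0943 to 0.185). At 6–8 months, Tubb4b differed by −1.28 between immature-neuron-like and neuroblast-like cells in the experiment with 12 neuroblast-like cells (others −0.169 to 0.0431), and Tuba1c by 0.168 between astrocyte-like and NSC-like cells in another (others −0.0382 to 0.0121).

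The effect of cycling differed between OPC-like and IPC-like cells, by the interaction term, for 7 isotypes: the difference of the log2 fold changes was 0.97 for Tuba1a, −1.01 for Tuba1b, 1.89 for Tubb2a, 2.02 for Tubb2b, 2.59 for Tubb3, 1.06 for Tubb4a and 1.06 for Tubb5.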

How the results depend on the processing

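Of 68 member tests 52 passed the threshold, and 36 of these passed in the same direction under every alternative run, among them each call in cycling IPC-like cells except Tubb4a, each in cycling NSC-like cells except Tuba1a, and each in astrocyte-like cells; 49 of the 52 never turned direction. Over all genes, calls per comparison ran from 60 of 4118 tested in immature-neuron-like cells to 4425 of 5500 in oligodendrocyte-like cells. Where a cause is not named, the cause was not tested. Members called in cycling OPC-like cells fell from 6 to 3 with DESeq2, 2 without the replicate block, 2 with Version 2 alone and 3 with Version 3 alone. The interaction fell from 7 to 4 with the stricter cycling call, and oligodendrocyte-like against OPC-like cells from 8 to 5 with total UMIs, where Tuba1a turned to −0.052. Other single calls were lost for Tuba1a in cycling NSC-like cells with Version 2 alone (0.51, adjusted p = 0.071), Tubb4a in cycling IPC-like cells with Version 2 alone (−0.75, adjusted p = 0.0606), Tubb2b in mitotic cells with Version 2 alone (−0.28, adjusted p = 0.0888), and Tubb2a in neuroblast-like cells with Version 3 alone (0.36, adjusted p = 0.0673); Tubb3 in oligodendrocyte-like cells turned to 0.077 with Version 2 alone. With at least 10 UMIs, Tuba1c, which the 20% filter leaves out, passed as higher in cycling NSC-like, IPC-like and OPC-like cells and as lower in the interaction (adjusted p = 0.0102). Calls gained in the direction of the value reported were Tubb2a in mitotic cells with at least 10 UMIs (0.36, adjusted p = 0.0457) and without experiment 6 (0.42), Tubb5 in cycling IPC-like cells with Version 3 alone (−0.13), Tubb2b in astrocyte-like cells under 4 alternatives and Tubb4b in the interaction under 5. In depth, cycling cells are the limit, with as few as 6 per experiment.

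Small values that did not pass the test in either direction, or passed only under the alternative, turned sign. Tubb5 in cycling IPC-like cells was −0.01 and became 0.0030 with DESeq2, 0.095 with at least 10 UMIs, 0.0014 without the block, 0.082 with the stricter gate and 0.17 with Version 2 alone (adjusted p = 0.0335). In cycling OPC-like cells Tuba1a became −0.026 with at least 10 UMIs, −0.13 with the stricter gate, −0.29 with the stricter cycling call and −0.045 with Version 3 alone, and Tubb2a 0.072 without the block. In immature-neuron-like cells Tubb5 became 0.011 with at least 10 UMIs, Tubb4a −0.068 without the block, Tuba1a and Tuba1b 0.019 and 0.038 with the stricter cycling call, Tubb2b −0.032 with Version 2 and Tubb3 0.044 with Version 3. In astrocyte-like cells Tubb4b became −0.047 with total UMIs and −0.018 with Version 2, and Tubb2b 0.033 with Version 2.

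Of 72 share differences 45 passed 0.05, and 38 to 44 under the alternatives with a test; the 3 settings added later leave under 6 experiments, where the sign-flip test cannot pass. Share differences that turned, in percentage points, were Tubb3 (−0.0224) and Tubb4a (−0.602) in astrocyte-like cells by the mean over cells, Tubb3 in cycling NSC-like cells (0.122) and Tuba1b in immature-neuron-like cells (0.0248) with the stricter gate, and with the stricter cycling call Tuba1a (0.499) and Tuba1b (0.0574) in immature-neuron-like cells and Tubb3 in astrocyte-like cells (−0.0757). The fall of the Tuba1a share in immature-neuron-like cells (−1.73), which had passed, was thus lost.

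Leaving out 1 experiment at a time, values that turned sign ranged from −0.057 to 0.037 for Tubb5 in cycling IPC-like cells, −0.21 to 0.17 for Tuba1a and −0.072 to 0.48 for Tubb2b in cycling OPC-like cells, −0.0067 to 0.13 for Tuba1a in mitotic cells, and −0.13 to 0.00083 for Tubb3 and −0.10 to 0.0019 for Tubb5 in immature-neuron-like cells. For shares the ranges were −0.324 to 0.0118 for Tubb3, −0.0222 to 0.119 for Tubb4a, −0.166 to 0.0026 for Tuba1b and −0.692 to 0.146 for Tubb5 in immature-neuron-like cells, and −0.0377 to 0.104 for Tubb3 and −0.0022 to 0.0322 for Tuba1c in astrocyte-like cells.

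Without the replicate block, besides the calls named, Tubb4b (1.07, adjusted p = 0.408), Tubb3, Tubb2b and Tubb4a lost their calls in cycling OPC-like cells, Tubb4a in cycling IPC-like cells (−1.22, adjusted p = 0.153), Tubb2b in mitotic cells (−0.30, adjusted p = 0.208), Tuba1b and Tubb2a in neuroblast-like cells, Tuba1a and Tubb4b in oligodendrocyte-like cells (adjusted p = 0.0538 and 0.36) and Tuba1a and Tubb4a in the interaction; no other member call changed. Calls over all genes without the block were 1293 in place of 2370 in cycling IPC-like, 138 in place of 1314 in cycling OPC-like and 932 of 2199 in mitotic cells, 3 of 60 in immature-neuron-like and 1137 of 1771 in astrocyte-like cells, and 212 of 793 in the interaction. With at least 10 UMIs, which tests more genes, they were 4933 in place of 3188 in cycling NSC-like, 6170 of 2617 in neuroblast-like, 153 of 60 in immature-neuron-like, 3664 of 1771 in astrocyte-like and 10828 of 4425 in oligodendrocyte-like cells. DESeq2 gave 532 in cycling OPC-like, 1420 in mitotic and 21 in immature-neuron-like cells. The stricter gate gave 36 in immature-neuron-like cells and 313 in the interaction, and the stricter cycling call 1476 in cycling IPC-like cells, 8 in immature-neuron-like cells and 357 in the interaction. Version 2 alone, with 3 experiments, gave 1166 in cycling NSC-like, 1068 in cycling IPC-like, 46 in cycling OPC-like, 807 in mitotic and 33 in immature-neuron-like cells and 102 in the interaction, and Version 3 alone 31 in immature-neuron-like cells and 486 in the interaction. Cycling OPC-like calls were 805 and 615 without 1 or the other of 2 experiments at 6–8 months, immature-neuron-like calls 38 without the first 2-month experiment, and interaction calls 383 without the experiment at 1 month.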

Other observations

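Cells with cell cycle genes in groups that no comparison used had shares of their own. Cycling neuroblast-like cells (7 experiments) held 9.85% ± 3.42 Tuba1b, 25.3% ± 1.88 Tubb5 and 4.40% ± 1.63 Tubb3 among tubulin UMIs, where neuroblast-like cells outside the cycle held 1.24% ± 0.369, 18.6% ± 2.32 and 7.90% ± 0.968. Oligodendrocyte-like cells that passed the cycling call (6 experiments) held 11.2% ± 5.35 Tubb5 and 35.2% ± 11.99 Tubb4a, against 3.85% ± 0.604 and 48.5% ± 8.24 outside it. These differences were not tested, and the part of doublets in them was not tested.

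The 3 α isotypes together made up 37.9% ± 8.79 of the 9 isotypes' UMIs in NSC-like cells outside the cycle, 46.4% ± 4.67 in cycling NSC-like cells, 47.5% ± 1.85 in neuroblast-like cells, 42.8% ± 6.32 in oligodendrocyte-like cells, 26.5% ± 3.54 in astrocyte-like cells and 63.5% ± 2.95 in committed-precursor-like cells (5 experiments), the highest of the groups outside the cycle. The cells that met no gate held 49.1% ± 1.36.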
